A study of Bos taurus with 15 samples.

Results

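In the mammary glands of lactating cows given dexamethasone (DEX), a synthetic glucocorticoid (GC), 78 genes were lower at both 12 and 24 h after the injection and were back near their starting level by 72 h. They are 78 of the 4795 genes (1.63%) that reached a mean of 4 normalized counts in cows 2, 3 and 4, out of 24616 Ensembl identifiers in the file. A normalized count is the number of sequencing reads of a gene, scaled so that libraries of different size can be compared. Changes are differences of log2(normalized count + 0.5) from the 0 h library of the same cow, so that -1 is about a halving for well-counted genes and less than a full measure of the fall for scarce ones. A gene was a member when its mean change over cows 2, 3 and 4 lay between -2.5 and -0.8 at 12 h and again at 24 h, every one of those cows was below 0 at both times, and the mean change at 72 h was within 0.5 of 0. The members were thus chosen by their measured changes at 12, 24 and 72 h in cows 2 to 4, and those values are described without a test. The libraries of cow 1 took no part in the choice.

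The animals were non-pregnant Holstein cows in their second lactation, and every animal received the same single intramuscular injection of 40 mg of DEX, so that the 0 h biopsy is the baseline and there was no untreated group. All of them were also given ampicillin around the biopsies. Core biopsies were taken from a different gland of the udder each time, the left rear for 0 h, the left front for 12 h, the gland numbered 3 for 24 h and the right rear for 72 h. The order was the same in all cows, so time after DEX and the gland sampled cannot be told apart. Cows 2, 3 and 4 gave 12 libraries and cow 1 gave 3, at 0, 12 and 24 h. Per the study's text, an animal stopped ruminating by the 24 h biopsy, later passed blood in its faeces and was withdrawn. It is not numbered there, but cow 1 is the only animal that lacks a 72 h library, so the cow outside the rule was very probably the ill one. The 15 libraries held between 1804120 and 6228132 reads, fewest in cow 4 at 0 h. The file gives Ensembl identifiers without symbols, and 0 of them could be matched to a name in the reference table used here. Members are therefore described by their levels, and only 2 identifiers are printed. For the same reason the tissue was not checked against marker genes of its cell types.

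Glucocorticoids act through the glucocorticoid receptor, a transcription factor that moves to the nucleus when it binds the hormone. There it raises some genes by binding DNA directly and lowers others, partly by interfering with factors such as AP-1 and NF-κB that drive inflammatory genes. In the lactating udder, physiological glucocorticoids act together with prolactin to maintain milk protein genes, while a single large dose of DEX lowers milk yield for a time. Which of these routes, if any, applies to a given member is not something that the counts can show. In whole biopsies, fewer cells of a type and less RNA per cell cannot be told apart.

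The 78 members covered a wide range of abundance. At 0 h in cows 2 to 4 their mean level ran from 5.33 to 44724 normalized counts, with a median of 20.01. Of the 78, 17 were under 10, 51 lay between 10 and 100, and 10 were at 100 or more. A member had a median of 51 reads per library, none was without a read in any library, and 17 had fewer than 10 reads in some library of cows 2 to 4. Most members are thus modestly expressed genes, and a single gene dominated their sum.

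That gene is ENSBTAG00000005859, the most abundant member. It had 45224, 34984 and 53965 normalized counts at 0 h in cows 2, 3 and 4. At 12 h it had 24644, 15743 and 22735, and at 24 h it had 27368, 12327 and 16245. Every cow was lower at both times, and no 12 or 24 h value reached any 0 h value. At 72 h the same cows had 36270, 38601 and 33080 normalized counts, so that cow 3 stood above its own 0 h level while cows 2 and 4 stood below theirs. The 0 h mean was 44724 ± 9500 (SD, n = 3 cows). It fell to 21041 ± 4686 for the 12 h and 18647 ± 7803 for the 24 h libraries, and the 72 h mean was 35984 ± 2772. Cow 2 kept 54.5% of its 0 h level at 12 h and 60.5% at 24 h, whereas cow 4 kept 42.1% and then 30.1%. The gene took 3.35 to 5.17% of all normalized counts of a library at 0 h in these cows, and 1.29 to 2.40% at 24 h. Cow 1 started higher, with 71146 normalized counts, and had 23280 left after 12 h and 13960 after 24 h, which is 32.7% and 19.6% of the start. All normalized counts of cow 1 summed to 1254960 at 0 h but to 808404 at 24 h. As a share of the library, the gene held 5.67%, 2.18% and 1.73% at 0, 12 and 24 h in cow 1, a smaller fall at 24 h than in normalized counts.

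The member with the largest fall, averaged over 12 and 24 h, was ENSBTAG00000037539. It had 19.5, 30.1 and 21.4 normalized counts at 0 h in cows 2, 3 and 4, then 5.07, 7.39 and 3.01 at 12 h and 3.49, 8.53 and 4.85 at 24 h. All of the 12 and 24 h values lay below all of the 0 h values. At 72 h the cows had 24.5, 19.0 and 9.83, and they had parted, with cow 2 above its own start and cow 4 still under 10. The mean change was -2.15 at 12 h and -2.04 at 24 h. The smallest of these counts rested on 15 reads, in cow 4 at 12 h. Cow 1 had 19.9 normalized counts before DEX, and 7.73 and then 3.35 after 12 and 24 h.

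Without the most abundant gene, the other 77 members summed to 3655, 4322 and 3797 normalized counts at 0 h in cows 2, 3 and 4. The sum was 1747, 1557 and 1654 at 12 h and 1817, 1761 and 1745 at 24 h. The cows thus differed little from each other at these times. At 72 h the sum was 3789 in cow 2 and 4709 in cow 3 but 3053 in cow 4, the lowest of these cows. The normalized counts of all genes also had their lowest sum in that library, 781910, and as a share of the total these members held 0.394%, 0.535% and 0.39% in cows 2, 3 and 4. The most abundant member held 3.77%, 4.39% and 4.23%, so on this scale cow 4 was close to cow 2 for the 77 members and above it for the most abundant one.

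**Figure D1:**
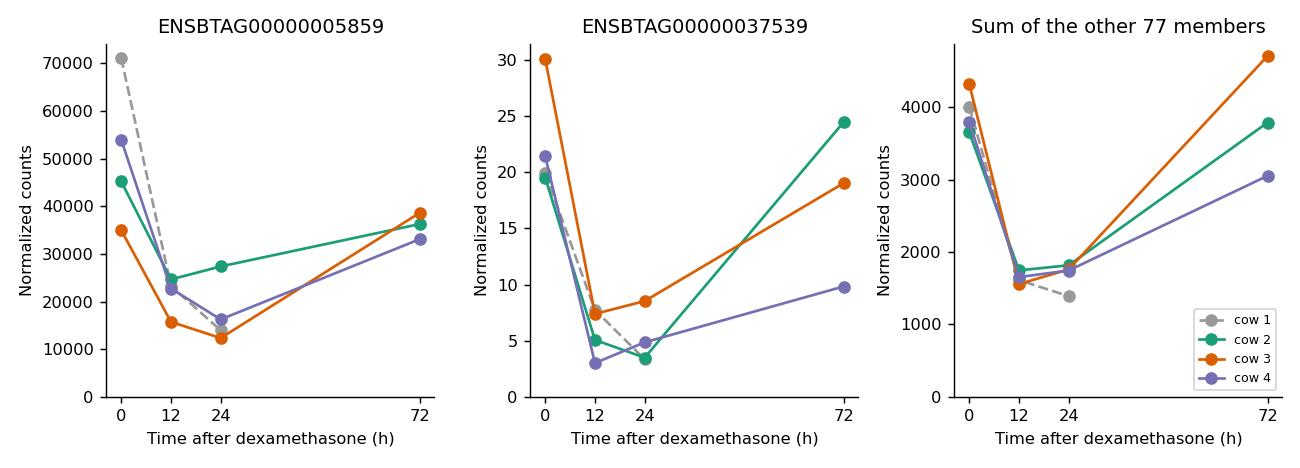
Normalized counts (linear axes from 0) in each library against time after dexamethasone in hours, for ENSBTAG00000005859, for ENSBTAG00000037539 and for the sum of the other 77 members, with 1 point per library joined by cow and cow 1 dashed. Every cow falls from 0 h to 12 h and is still low at 24 h, and at 72 h cow 4 has the lowest value in each panel (33080, 9.83 and 3053), in the library whose normalized counts have the lowest total (781910).

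Across the 78 members, the median of the mean changes in cows 2 to 4 was -1.15 at 12 h, with a range from -2.41 to -0.80, and -1.12 at 24 h, with a range from -2.08 to -0.80. Over all 4795 genes the corresponding medians were 0.07 and 0.046. The spread between cows was sizeable beside these changes, with a median SD over the 3 cows of 0.38 at 12 h and 0.43 at 24 h. The cows did not contribute equally at 12 h and were more even at 24 h. At 12 h the members' median changes in cows 2, 3 and 4 were -1.11, -1.45 and -1.34, and the largest fall of a member was in cow 3 for 34 genes, in cow 4 for 27 and in cow 2 for 17. At 24 h the medians were -1.09, -1.22 and -1.22 in cows 2, 3 and 4, and the largest fall was in these cows for 23, 27 and 28 genes. The cow with the largest fall was not counted over all genes, so these counts only describe the members. On the level scale, every 12 h value lay below every 0 h value in 74 members, against 12.7% of the 4795 genes, and every 24 h value in 70 members, against 11%. In 68 members both held, against 5.48%. The rule used these contrasts, so nothing is read from those counts.

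**Figure D2:**
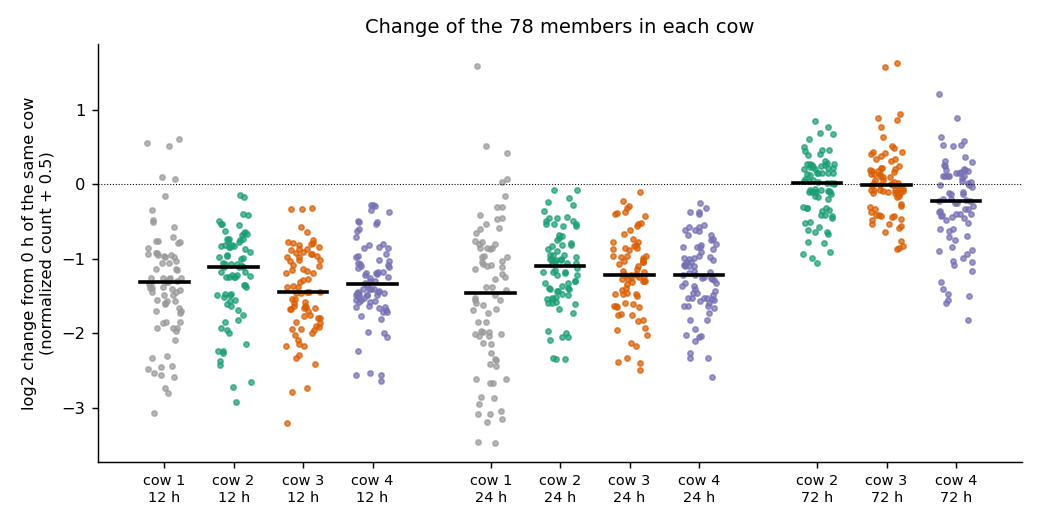
The log2 change of each of the 78 members from the 0 h library of the same cow (1 point per member, black bar the median) in each cow at 12, 24 and 72 h. In cows 2 to 4 all points at 12 and 24 h are under 0 because the rule required it, cow 1 was not used by the rule and has a few points above 0, and at 72 h the median of cow 4 is -0.23 against 0.02 in cow 2 and -0.01 in cow 3.

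Cow 1, very probably the animal that fell ill, gave a look at the same genes outside the cows that had chosen them. In its 24 h library, illness and time after DEX cannot be told apart. Of the 78 members, 73 were lower at 12 h than at 0 h in cow 1, against 47.2% of the 4795 genes, and 73 were lower at 24 h, against 53.4%. At both times 70 members (89.7%) were lower, against 33.2% of the 4795 genes. A change of -0.8 or more negative at both times was found for 52 members (66.7%), against 5.07%. The median change of the members in cow 1 was -1.32 at 12 h and -1.46 at 24 h, beside 0.043 and -0.058 for all 4795 genes. These are shares of genes in 1 animal, and both changes are measured from the same 0 h library, so they carry no test.

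Counting error was then set beside the falls in cow 1. For 59 members, the 95% exact binomial interval of the reads (Clopper-Pearson) placed the gene below its 0 h library at both times, against 11% of the 4795 genes. Only 1 member was above its 0 h library beyond that interval at 12 or 24 h, against 32.4%. Such intervals compare libraries, not conditions, and cover counting error only, since reads copied by PCR need not stand for separate molecules.

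The 8 members that were not lower at both times in cow 1 were mostly scarce genes. In 7 of them the mean over the 12 libraries of cows 2 to 4 was at most 9.58 normalized counts, with 5 to 57 reads in cow 1 at 0 h. The other, with a mean of 77.3, had 74.4, 45.3 and 78.1 normalized counts at 0, 12 and 24 h in cow 1, so it fell at 12 h and was back at its start by 24 h. The scarcest had 1.28, 2.21 and 4.86 normalized counts at 0, 12 and 24 h, on 5, 12 and 29 reads. By level at 0 h in cows 2 to 4, 11 of the 17 members under 10 normalized counts were lower at both times in cow 1, 49 of the 51 between 10 and 100, and 10 of the 10 at 100 or more. The shares of all genes in those classes were 30.2%, 34.8% and 39.6%. The 3 classes of members had median changes in cow 1 of -0.96, -1.34 and -1.44 at 12 h and of -0.86, -1.55 and -1.82 at 24 h.

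**Figure D3:**
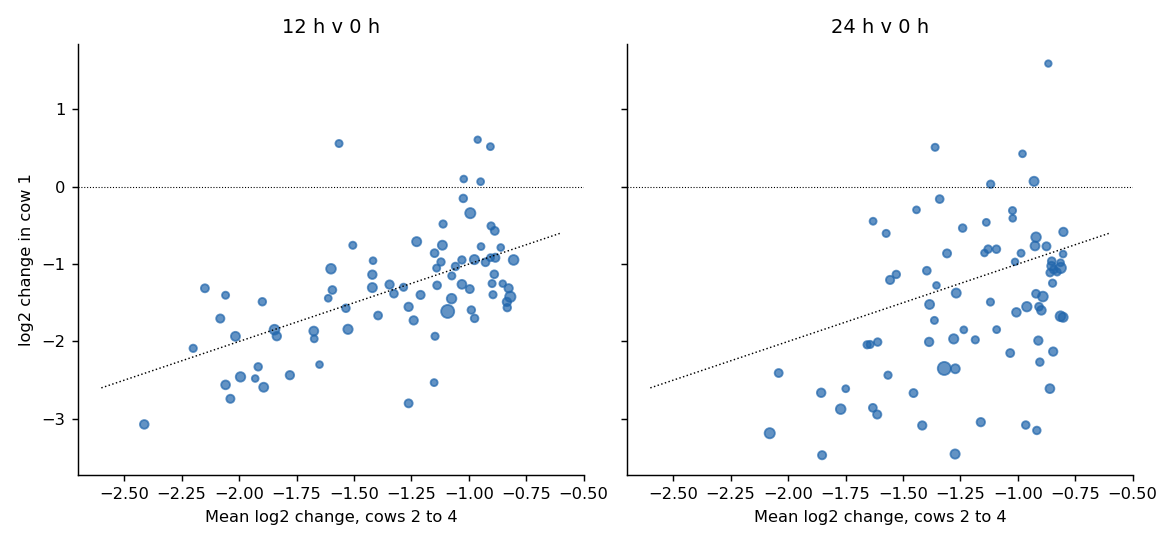
The log2 change in cow 1 (vertical) against the mean log2 change in cows 2 to 4 (horizontal) for the 78 members at 12 h and at 24 h, with larger points for genes of higher level at 0 h, a dotted line at 0 and a dotted line of equality. At each time 73 of the 78 points lie under 0, and the spread in cow 1 is wider at 24 h, from -3.47 to 1.59, than at 12 h, from -3.07 to 0.61.

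At 24 h the change in cow 1 was more negative than in all of cows 2 to 4 for 38 members (48.7%), against 38.3% of the 4795 genes, so cow 1 stood below the other cows for many genes of any kind. It lay within their range for 23 members (29.5%, against 40.8%) and above it for 17 (21.8%, against 20.9%). At 12 h these counts were 25 (32.1%, against 26.5%), 36 (46.2%, against 51.8%) and 17 (21.8%, against 21.6%). The sum of the 77 less abundant members in cow 1 was 4009 normalized counts at 0 h and 1612 at 12 h, both within the range of the other cows, and 1390 at 24 h, below them. The normalized counts of all genes also summed to less in that library, 808404, than in the 24 h libraries of cows 2 to 4, and as a share of the total the 77 members held 0.172%, within the 0.159 to 0.184% of the other cows at 24 h. On that scale cow 1 was below the other cows at 0 h, with 0.319% against 0.362 to 0.414%, and just below them at 12 h, with 0.151% against 0.152 to 0.175%. With no library of cow 1 after 24 h, these data say nothing of a return in that animal.

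The same question was put to cows 2, 3 and 4 in turn, by applying the rule to a pair of them and looking the chosen genes up in the cow left out. This check was added after the data were seen. Of 75 genes chosen in cows 3 and 4, 64 (85.3%) were lower at both times in cow 2, against 26.3% of all genes considered. Of 54 chosen in cows 2 and 4, 50 (92.6%) were lower at both times in cow 3, against 31.1%, and of 97 chosen in cows 2 and 3, 85 (87.6%) were lower in cow 4, against 31.6%. The falls were smaller in the cow left out than in the pair that chose the genes for cow 2, with a median of -0.95 against -1.29 at 12 h and -0.79 against -1.09 at 24 h. For cow 3 the medians were -1.22 against -1.21 at 12 h and -1.12 against -1.31 at 24 h, and for cow 4 they were -1.07 against -1.22 and -0.95 against -1.13. The lists themselves changed with the cows, since 48, 42 and 52 of the genes chosen without cow 2, 3 or 4 were among the 78. At 72 h the chosen genes had a median change, in the cow left out, of -0.061, 0.015 and -0.24 for cows 2, 3 and 4.

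The rule did not fix whether the fall deepened or eased between 12 and 24 h, but it bore on it. It held the difference between both changes to at most 1.7 and used the 12 and 24 h values of the same cows. Its -0.8 limit alone kept out 78 genes at 24 h and 22 at 12 h, so easing and deepening were not cut equally. The split, the calls and the p-values for members thus describe a set chosen on these values. In cows 2 to 4, 50 members had the lower mean at 12 h and 28 at 24 h, and the median difference was 0.11 higher at 24 h. This split was not counted over all genes, so nothing about the members is read from it. The 24 h against 12 h comparison was tested with limma over all 13525 genes with a read in these cows, and p-values were adjusted by the Benjamini-Hochberg method. The model held the correlation between libraries of the same cow, but this was estimated at 0.0179, so the fit was close to an unpaired fit. Of the 78 members, 3 (3.85%) were higher at 24 h at an adjusted p under 0.05, against 0.318% of the 13525 genes, and 0 were lower, against 0.384%. At an unadjusted p under 0.05 there were 11 members (14.1%), against 11.4%. Among the 4795 better-counted genes, tested alone, 2.65% were higher and 2.82% lower, and 3 members were higher and 1 lower. Read against these 4795 genes, which were not matched to the members by level, the members' limma count was not far from the background. Leaving out any of the cows ended most of these calls, with 0 members higher at 24 h without cow 2 or without cow 4 and 1 without cow 3. Calls over all genes fell too. There were 4, 6 and 0 genes higher at 24 h without cow 2, 3 or 4, against 43 with all of these cows. With edgeR on the reads, 8 members were higher and 1 lower, where 1.78% and 2.2% of the 13525 genes were called. With DESeq2 these were 6 and 1, against 1.23% and 1.09%. These 2 methods were not run on the 4795 genes alone.

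The clearest of the 3 members called higher at 24 h started from 56.4, 51.1 and 52.1 normalized counts in cows 2, 3 and 4. These cows had 10.1, 10.1 and 8.62 at 12 h, 24.0, 26.0 and 28.9 at 24 h and 52.6, 68.2 and 42.4 at 72 h. The cows were close together at 0, 12 and 24 h, and every 24 h value lay above every 12 h value and below every 0 h value. The log2 change between 12 and 24 h came to 1.41 (standard error 0.18), with an adjusted p of 0.00135 in limma, and 3 of 3 cows showed the rise. In cow 1 it had 76.5, 8.65 and 24.5 normalized counts at 0, 12 and 24 h. Its adjusted p over the alternatives ran from 5.601e-08 to 0.111.

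The next had 142.2, 145.3 and 162.1 normalized counts at 0 h in cows 2, 3 and 4, then 29.7, 42.7 and 40.5 at 12 h and 88.8, 61.6 and 82.2 at 24 h. It rose by 1.03 on the log2 scale between them (standard error 0.18), higher in 3 of 3 cows, with an adjusted p of 0.0157 in limma and of 4.392e-06 to 0.239 over the alternatives. In cow 1 it had 19.7 normalized counts at 12 h and 37.4 at 24 h. The remaining one had 50.5, 69.8 and 59.0 at 0 h, then 17.8, 15.4 and 9.62 at 12 h and 31.0, 29.2 and 34.8 at 24 h. It rose by 1.16 (standard error 0.21), again higher in 3 of 3 cows, with an adjusted p of 0.0162 in limma and of 9.162e-06 to 0.337 over the alternatives. Cow 1 had 16.0 and 31.7 normalized counts of it at 12 and 24 h. All of these genes thus stood between their 12 h and 0 h levels at 24 h in all 4 cows.

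The member that went furthest the other way was the third most abundant. It was singled out after its values were seen. It had 404.5, 481.2 and 301.0 normalized counts at 0 h in cows 2, 3 and 4, then 276.9, 159.2 and 167.7 at 12 h, 141.2, 90.8 and 59.6 at 24 h, and 490.0, 528.7 and 374.6 at 72 h. Each cow was lower at 24 h than at 12 h, and each was above its own start at 72 h. The log2 difference of 24 h from 12 h, -1.09 (standard error 0.27), had an adjusted p of 0.0659 in limma and did not pass the threshold. Over the alternatives the adjusted p ran from 1.439e-07 to 0.403. Blocking on cow with a fixed effect in place of a correlation gave 0.00498. In cow 1 the gene had 356.2, 280.8 and 38.7 normalized counts at 0, 12 and 24 h.

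**Figure D4:**
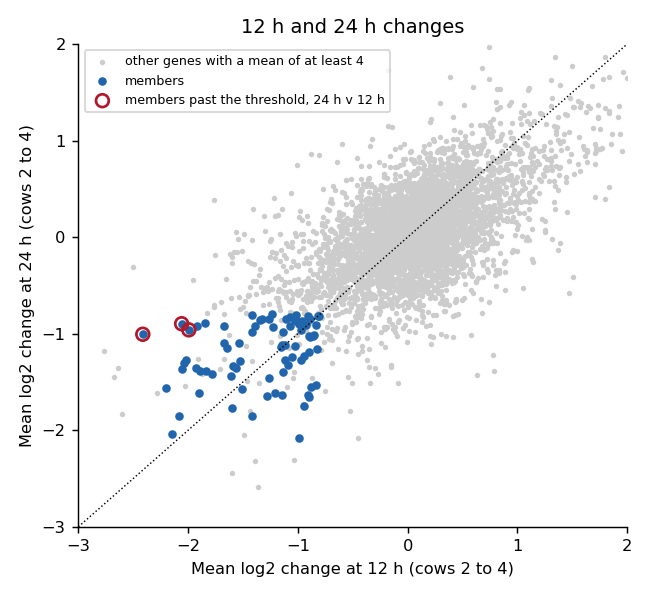
Mean log2 change at 24 h against mean log2 change at 12 h in cows 2 to 4, with the 78 members in blue, the other 4717 genes with a mean of at least 4 in grey (62 of them outside the axes) and the line of equality dotted. The 3 ringed members, past the threshold in 24 h v 12 h, sit toward the left above the line. Of all members, 50 lie above the line and 28 under it, in a set that the rule chose by both plotted changes.

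The order of 12 and 24 h was also looked up in cow 1, which shares no library with the other cows. There were 8 members lower at 24 h than at 12 h in each of cows 2, 3 and 4, and 8 of the 8 were lower at 24 h in cow 1. Of the 998 genes of any kind with that order in cows 2 to 4, 81.0% had it in cow 1, where 55.0% of all 4795 genes were lower at 24 h. There were 21 members higher at 24 h in each of cows 2 to 4, and 14 of them were higher in cow 1. The share among all 1102 such genes was 69.9%, where 44.9% of all genes were higher in cow 1. Those 8 and 21 members had median differences from 12 to 24 h of -0.70 and 0.51 in cows 2 to 4, and of -1.54 and 0.43 in cow 1.

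By 72 h the mean change of every member was within 0.5 of 0, as the rule required, with a median of -0.11. Every cow was within 0.5 of its own start in 32 members (41%), about the same share as among all 4795 genes (40.4%). In cow 2, 60 members were within 0.5 (76.9%, against 75.4% of all genes), 13 below (16.7%, against 14.1%) and 5 above (6.41%, against 10.5%). In cow 3, 61 were within (78.2%, against 79.1%), 9 below (11.5%, against 8.26%) and 8 above (10.3%, against 12.7%). In cow 4, 48 were within (61.5%, against 61.1%), 23 below (29.5%, against 18.7%) and 7 above (8.97%, against 20.2%). The shares within 0.5 were thus close to those of genes in general. More of the rest lay below than above in cows 2 and 4, while in cow 3 the 9 below and 8 above were nearly even. The members' median in cow 4 was -0.23, where that of all genes in this cow was 0.028. The rule used the 72 h mean, so nothing about the members is read from these counts. The 0 h library of cow 4 was the shallowest, with 4 members under 10 reads, and its part in this spread was not tested.

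In 65 members every cow stood above both its 12 h and its 24 h value at 72 h, against 10.1% of the 4795 genes, a count that the limits of the rule largely set. The exceptions lay mostly in cow 4, where 8 members were still at or below the higher of these values, against 3 in cow 2 and 2 in cow 3. These counts were not taken over all genes. Genes in general also spread more in cow 4 at 72 h, with 61.1% within 0.5 of the start against 75.4% in cow 2 and 79.1% in cow 3. The excess in cow 4 is thus not read as a trait of the members. The member with the lowest change at 72 h in any cow had 37.6, 9.02, 10.2 and 10.2 normalized counts at 0, 12, 24 and 72 h in cow 4, so that it stayed low there. In cow 2 the same gene had 38.8, 5.73, 9.36 and 36.3, close to its start at the end. In cow 3 it started lower and had 8.72, 2.87, 8.10 and 28.0, well over its start at 72 h. Averaging these cows gave a 72 h change of -0.099 for a gene that had returned in only some of them. The member with the highest mean 72 h change, 0.47, rested on cow 3, with 19.2 normalized counts at 0 h and 58.3 at 72 h, while cow 2 had 4.17 and 3.67 and cow 4 had 6.95 and 6.90.

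The limits of the rule cut through a continuum. At 12 h the member nearest to -0.8 had a mean change of -0.805 and the nearest gene that failed only this limit had -0.790. At 24 h these values were -0.801 and -0.792. The 24 h limit was the one that kept most genes out, with 78 genes that met all else, against 22 for the 12 h limit. At the other end, 3 genes failed only by falling too far at 12 h, the nearest at -2.6, and 1 only by falling too far at 24 h, at -2.58. At 72 h the nearest members were at -0.485 and 0.467 and the nearest genes outside were at -0.503 and 0.631. Of the 107 genes that met the 12 and 24 h conditions, 26 were left out as still below -0.5 at 72 h and 3 as above 0.5. Since 12, 24 and 72 h are all measured from the same 0 h libraries, an error in these moves all changes alike, and nothing is read from the excess of 26 over 3.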

How the data were processed

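Reads were trimmed by the authors with HTStream, aligned with STAR (2.6.0c) to Bos taurus UMD3.1 with Ensembl annotation release 93 and counted per gene. The deposited file holds normalized counts, a signal in which each library was scaled by a single factor; the scaling method is not given in the sources used here. QuantSeq libraries read the end of each transcript, so levels do not grow with gene length. All values divided evenly by the worth of 1 read in their library (100% within 0.01), which gave back the reads, between 1804120 and 6228132 per library. A count of 0 would allow up to 3 reads, or 0.464 to 1.74 normalized counts by library. Samples were grouped by the cow and time in their titles.

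The members and gene lists were chosen with earlier results of these data known. The 20 gene lists and the promoter motifs named in the design need symbols and could not be used. Genes to be described were the most abundant member, the one with the largest fall, those past the threshold in 24 h v 12 h, those not lower in cow 1 and those at the limits of the rule.

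The 24 h v 12 h test used limma (3.58.1, R 4.3.3) with a trend and duplicateCorrelation on log2(normalized count + 0.5) of 12 libraries, following the model of time and within-cow correlation in the study's methods. A cow number marks 1 animal and so pairs its libraries. The correlation of their deviations from the time point means was over 0.1 in 18 of 18 pairs (median 0.276, lowest 0.149), but the consensus correlation that limma used was 0.0179. The main p-values thus made little use of the pairing. In reads simulated for 24 h v 12 h over 13013 genes, limma found 24 of the 100 genes given a 2-fold change and 90 of the 100 given a 4-fold change, and also called 3 genes that had not been changed. The simulated libraries were drawn independently, with no pairing by cow, and the changed genes came from those with a mean of at least 4. These counts thus do not measure recovery with paired libraries or in scarcer genes. Alternatives used edgeR (4.0.16) and DESeq2 (1.42.0) on the recovered reads, other pseudocounts, filters and scalings, and cows left out.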

Additional observations from a re-analysis of the deposited data

Results flagged for a closer look

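In 21 groups of 4 libraries (the levels of the most abundant member, of the one with the largest fall and of the 3 past the threshold in 24 h v 12 h, the sum of the 77 less abundant members and the share of the library in members, each at 0, 12 and 24 h), 1 library lay far from the others, where chance gives about 1.1. It was cow 1 at 24 h, in which the 77 less abundant members summed to 1390 normalized counts. Cows 2 to 4 had between 1745 and 1817, and the gap to the nearest was 0.831 of the whole range. As a share of all normalized counts of the library these members held 0.172% in cow 1, within the 0.159 to 0.184% of the other cows.

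By the limma test of 24 h v 12 h, 3 members passed the threshold, with log2 differences of 1.41, 1.03 and 1.16 between these time points. Each was higher at 24 h in 4 of 4 cows when cow 1 was counted. The rule chose the members on the same 12 and 24 h values of cows 2 to 4, so these calls describe a chosen set. Without cow 2, 3 or 4, the members called higher numbered 0, 1 and 0.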

How the results depend on the processing

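The number of genes found by the rule was 50 when the mean had to reach 10 normalized counts and 142 with no filter on the mean, both of which only move the filter, and 54 to 97 when a cow was left out. With pseudocounts of 0.1 and 2 it was 77 and 64, of which 77 and 53 were among the 78 members, so the list depended on the pseudocount. Median-ratio scaling gave 83 genes, of which 77 were members. Scaling libraries by their totals less the 20 most abundant genes, which was added after the data were seen, gave 114, again with 77 members. That last setting moved the median of all genes at 24 h from 0.046 to -0.105, and all 78 members stayed lower in each of cows 2 to 4 under it. They were already below 0 by the rule and the shift was downward, so nothing is read from that count. The share lower at both times in cow 1 was 98.0% with a mean of at least 10, 96.7% without members under 10 normalized counts at 0 h (also added later), and 83.3 to 92.0% when the members were chosen with a cow left out, beside 89.7%.

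In the 24 h v 12 h test, the members higher at 24 h numbered 3 in limma, 0 to 1 when a cow was left out, and 8 with edgeR and 6 with DESeq2, which both had cow as a fixed term (replicate block). With a cow left out, 0 to 6 of all genes were higher, against 43 with all of cows 2 to 4. With cow as a fixed term in limma (replicate block), 4 members were higher and 1 lower, where 113 and 121 of the 13525 genes were called. With no replicate block these were 3 and 0, against 41 and 49. The count lower at 24 h was 0 in limma and 1 with a pseudocount of 0.1, a mean of at least 4, all 15 libraries, edgeR, DESeq2 and totals without the 20 most abundant genes, and 0 when a cow was left out. For the 3 members called, no alternative reversed the direction. The cause of these differences was not tested. The planned counts over gene lists were not run, since no identifier could be matched to a symbol. Depth limits the scarcest members most, with as few as 2 reads in a library.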
